A study of Mus musculus with 3 samples.

Results

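Notch1, Notch2 and Notch3 (receptors), Dll1, Dll3 and Jag1 (ligands) and Hes1, Hes5, Hey1 and Hey2 (target genes) were followed across 3 treatments of mouse brain cultures. They were chosen by symbol: every array probe annotated with the name of a member was taken, which gave 14 probes for 10 of the 22328 genes on the array. Of these genes, 6 had 1 probe and 4 had 2.

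The samples were primary cells of the cerebrum of embryonic day 18 C57BL6/J mice, grown on poly-L-lysine and laminin in neurobasal medium with B27, which favours neurons. At day 10 in vitro they received, for 24 h, 1 mM valproate with 0.1% DMSO, 100 µM lamotrigine with 0.1% DMSO, or 0.1% DMSO alone, the solvent shared by every culture. Valproate is an antiepileptic drug that also inhibits class I histone deacetylases, and lamotrigine treats epilepsy by blocking sodium channels of neurons. Each treatment was measured once, on 1 array, and the submitters state this size themselves. The differences therefore carry no replicate check, no test between treatments was possible, and precision is limited by the number of arrays.

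Notch signalling passes between touching cells. A Delta or Jagged ligand on one cell binds a Notch receptor on its neighbour, the receptor is cut by ADAM proteases and then by gamma-secretase, and the freed intracellular domain enters the nucleus. There it joins the DNA-binding protein RBPJ and Mastermind coactivators and switches on Hes and Hey genes. The Hes and Hey proteins are basic helix-loop-helix repressors that hold back proneural genes, and the pathway is known in the embryonic cerebrum for keeping radial glia undifferentiated and, later, for favouring astrocytes over neurons.

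Levels are given as scaled signal, the background-subtracted intensity of a probe on a scale where 100 is the 75th percentile of all non-control spots of that array. That percentile was an intensity of 478 on the valproate array, 388 on the lamotrigine array and 372 on the DMSO array, and 15095 genes were detected with valproate, 14821 with lamotrigine and 14506 with DMSO. A probe was detected where most of its spots were well above background, and the lowest such scaled signal, the detection floor, was 3.88 with valproate, 4.63 with lamotrigine and 5.29 with DMSO. The technical SD of a difference was taken from the spots of probes that the array repeats 10 times, at the level of the gene. Variation of culture, extraction or labelling is not part of it. A difference beyond 2 technical SDs is thus more than the spread between spots, and is a description of these arrays only.

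None of the 9 members detected on all 3 arrays was 2-fold apart in any comparison (0 of 9 in each). By that threshold, 2.09% of all genes measured were higher and 1.42% lower with valproate than with DMSO. With lamotrigine 0.0976% were higher and 0.0628% lower than with DMSO, and with valproate 2.06% were higher and 1.69% lower than with lamotrigine. The members' median log2 difference was -0.07 for valproate minus DMSO, -0.04 for lamotrigine minus DMSO and -0.08 for valproate minus lamotrigine, beside -0.08, -0.05 and -0.03 over all genes measured in the same comparison. The comparisons of valproate and of lamotrigine with DMSO share the DMSO array.

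Beyond 2 technical SDs, valproate was lower than DMSO for 3 of the 9 members (Notch2, Hes5 and Hey1) and higher for 0, where 36.3% of all genes were lower and 20% higher by the same rule. Lamotrigine was lower than DMSO for 3 (Dll3, Hes5 and Dll1) and higher for 1 (Notch2), against 21.9% and 9.84% of all genes. Valproate was lower than lamotrigine for 2 (Notch2 and Hey1) and higher for 2 (Dll3 and Dll1), against 28.4% and 23.3% of all genes. The share of members lower with valproate than with DMSO was thus near that of all genes.

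**Figure D1:**
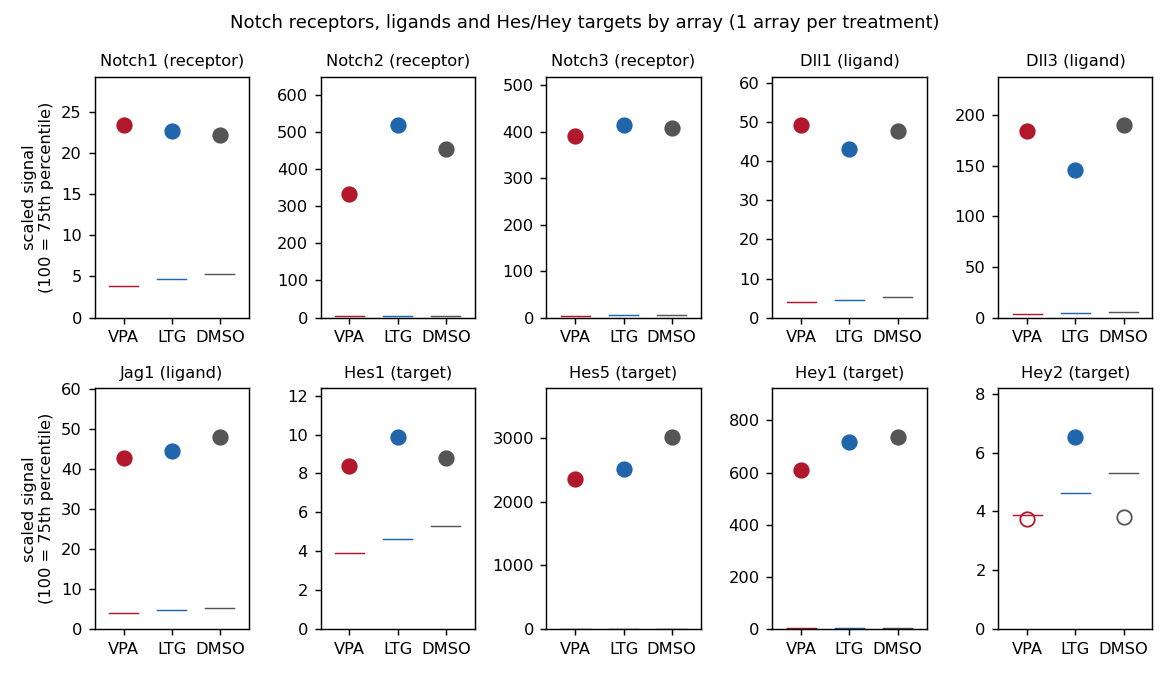
Scaled signal (linear axis from 0, 100 is the 75th percentile of an array) of the 10 genes on the valproate (VPA), lamotrigine (LTG) and DMSO arrays, 1 point per array. Filled points were detected, open points were not, and short lines mark the detection floor of each array. Notch2 was at 332, 518 and 453 and Dll3 at 185, 146 and 190, while Hey2 was above the floor with lamotrigine only.

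Among the receptors, Notch2 differed most. Its probe lies in the Notch2 transcript on the plus strand at chr3:97953914-97953973 (mm9). Notch2 had a scaled signal of 332 with valproate, 518 with lamotrigine and 453 with DMSO. The valproate value was the lowest of the 3 and the lamotrigine value the highest. The log2 difference was -0.45 for valproate minus DMSO (technical SD 0.07), a level 1.37-fold lower, and 19.7% of all genes lay at least as far from 0. For lamotrigine minus DMSO it was 0.19 (technical SD 0.07), with 30.6% of all genes at least as far. For valproate minus lamotrigine it was -0.64, or 1.56-fold lower, with 10.0% of all genes at least as far.

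Among the 9 members detected on all 3 arrays, that was the only difference of at least 1.5-fold. By that smaller threshold 5.84% of all genes were lower and 6.17% higher with valproate than with lamotrigine. With valproate against DMSO the same shares were 5.95% and 6.25%, and with lamotrigine against DMSO 0.76% and 1.12%, and 0 of 9 members passed in either. All 9 other settings of the processing gave the same sign for each of the 3 Notch2 differences. Of these, the 2 other detection filters, the mean of probes and outlier spots kept left the Notch2 values unchanged. Under spike-in scaling, however, valproate minus DMSO was -0.10, within 2 technical SDs of 0, and lamotrigine minus DMSO was 0.40.

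A second Notch2 probe lies 5′ of the first in the transcript, at chr3:97951233-97951292 (mm9, plus strand), and its sequence is printed because it gave a separate reading of the gene.
Notch2 upstream probe: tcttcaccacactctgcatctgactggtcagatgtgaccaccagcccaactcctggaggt
It was close to the floor, with 5.40 with valproate, 9.39 with lamotrigine and 5.06, not detected, with DMSO. Its log2 difference for valproate minus lamotrigine was -0.80 (technical SD 0.24), in the direction of the first probe. Against DMSO only bounds could be given, at least 1.02-fold higher with valproate and at least 1.77-fold higher with lamotrigine. The valproate bound was 0.03 in log2 (technical SD 0.24), within the technical spread, so the lower valproate level against DMSO rests on the first probe.

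Notch1, the receptor best known from neural progenitors, was read by a probe at chr2:26319440-26319499 (mm9, minus strand), whose sequence is shown since it alone detected Notch1 on every array.
Notch1 probe: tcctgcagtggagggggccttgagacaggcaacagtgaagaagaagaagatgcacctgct
Notch1 had a scaled signal of 23.4 with valproate, 22.7 with lamotrigine and 22.2 with DMSO. The 3 values were within the technical spread, with log2 differences of 0.07 (valproate minus DMSO, technical SD 0.24) and 0.03 (lamotrigine minus DMSO, technical SD 0.25). The second Notch1 probe, at chr2:26314630-26314689 (mm9, minus strand), was not detected with valproate (2.27) or DMSO (3.85) and was at 6.55 with lamotrigine. That made it at least 1.24-fold higher with lamotrigine than with DMSO, a bound that the first probe does not share. In log2 the bound was 0.31 (technical SD 0.25), within 2 technical SDs.

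Notch3, a receptor of vascular mural cells and also of neural progenitors, was at 391 with valproate, 414 with lamotrigine and 407 with DMSO, at chr17:32257848-32257907 (mm9, minus strand). Its log2 differences of -0.06 (valproate minus DMSO) and 0.02 (lamotrigine minus DMSO) were both within 2 technical SDs.

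Among the ligands, Dll3 stood lower with lamotrigine. Dll3 is a Delta-like protein of early neurons that, in mammals, stays mostly inside the cell and acts on Notch in the same cell. Its main probe, at chr7:29078763-29078822 (mm9, minus strand), had a scaled signal of 185 with valproate, 146 with lamotrigine and 190 with DMSO. The lamotrigine array was the lowest, and the other arrays were within the technical spread of each other.

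The log2 difference of Dll3 was -0.39 for lamotrigine minus DMSO (technical SD 0.09), a level 1.31-fold lower, and 6.69% of all genes lay at least as far from 0. It was -0.04 for valproate minus DMSO and 0.35 for valproate minus lamotrigine. The second Dll3 probe, at chr7:29079061-29079120 (mm9, minus strand), is shown because it repeated this pattern at another place in the transcript.
Dll3 upstream probe: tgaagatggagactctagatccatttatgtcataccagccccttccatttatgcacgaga
It read 134 with valproate, 97.7 with lamotrigine and 134 with DMSO. For lamotrigine minus DMSO this is -0.45 in log2 (technical SD 0.10), and for valproate minus DMSO 0.00. Both probes were hybridised with the same labelled RNA, so they do not replicate the treatment. The lower Dll3 level with lamotrigine than with DMSO kept its sign in all 9 other settings, in which the main value ranged from -0.42 to -0.18. The 2 other detection filters and the keeping of outlier spots left that value unchanged.

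Dll1, a Delta-like ligand of newborn neurons and intermediate progenitors, was printed 10 times on each array (chr17:15504623-15504682, mm9, minus strand), so its spread between spots was measured directly. The mean scaled signal was 49.3 ± 2.6 with valproate (SD, n = 10 spots), 43.2 ± 2.3 with lamotrigine (SD, n = 9 spots, with 1 outlier spot left out) and 47.8 ± 2.6 with DMSO (SD, n = 10 spots). The spots ranged from 43.8 to 53.8 with valproate, from 40.5 to 46.5 with lamotrigine and from 44.8 to 53.0 with DMSO, so the ranges with valproate and DMSO overlapped throughout and that with lamotrigine lay mostly below them. The log2 difference was 0.05 ± 0.03 for valproate minus DMSO (SE over spots) and -0.14 ± 0.03 for lamotrigine minus DMSO. For lamotrigine minus DMSO it turned to 0.058 when arrays were scaled on spike-in controls. Spots of 1 array share the culture and the labelled RNA and are not replicates of a treatment. The second Dll1 probe was not well above background on any of the 3 arrays.

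Jag1, a Jagged ligand of radial glia and astrocytes, was at 42.7 with valproate, 44.5 with lamotrigine and 48.1 with DMSO (chr2:136907433-136907492, mm9, minus strand). Its log2 differences were -0.17 (valproate minus DMSO, technical SD 0.11) and -0.11 (lamotrigine minus DMSO, technical SD 0.12), neither beyond 2 technical SDs.

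Among the targets, Hes5 and Hey1 were lower with valproate. Hes5, a main Notch effector in radial glia, was read at chr4:154336347-154336406 (mm9, plus strand) and had a scaled signal of 2355 with valproate, 2515 with lamotrigine and 3023 with DMSO. The DMSO array was the highest and the drug arrays lay close together. The log2 difference was -0.36 for valproate minus DMSO (technical SD 0.06), a level 1.28-fold lower, and -0.27 for lamotrigine minus DMSO (technical SD 0.07), a level 1.20-fold lower. For these, 27.7% and 17.2% of all genes lay at least as far from 0. The -0.10 for valproate minus lamotrigine was within 2 technical SDs. Scaling on spike-in controls brought the difference from DMSO to -0.01 with valproate and -0.06 with lamotrigine. Quantile normalization brought it to -0.21 with valproate and -0.16 with lamotrigine.

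Hey1, a Hes relative of neural progenitors and vessels, was at 610 with valproate, 717 with lamotrigine and 738 with DMSO (chr3:8663432-8663491, mm9, minus strand). The valproate array was the lowest, with a log2 difference from DMSO of -0.27 (technical SD 0.06) that 39.9% of all genes equalled or exceeded in size and that turned to 0.075 under spike-in scaling. For lamotrigine minus DMSO it was -0.04. With quantile normalization the value for valproate minus DMSO was -0.18.

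Hes1, the target with the broadest expression, was close to the floor at 8.39 with valproate, 9.89 with lamotrigine and 8.81 with DMSO (chr16:30067820-30067879, mm9, plus strand). Its differences of -0.07 (valproate minus DMSO) and 0.17 (lamotrigine minus DMSO) were within 1 technical SD of 0, which was 0.24 and 0.25 at this level. They depended on the processing, at -0.32 and -0.06 with normexp background correction and 0.28 and 0.37 with spike-in scaling. Hey2, a Hey gene best known from the heart and vessels, was detected with lamotrigine only (chr10:30552729-30552788, mm9, minus strand). Its signal was 3.75 with valproate and 6.55 with lamotrigine, against 3.79 with DMSO. It was at least 1.24-fold higher with lamotrigine than with DMSO and at least 1.69-fold lower with valproate than with lamotrigine. In log2 these bounds were 0.31 and -0.75, with technical SDs of 0.25 and 0.24, so the first lay within 2 technical SDs. No fold could be given for valproate against DMSO, since neither was detected.

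**Figure D2:**
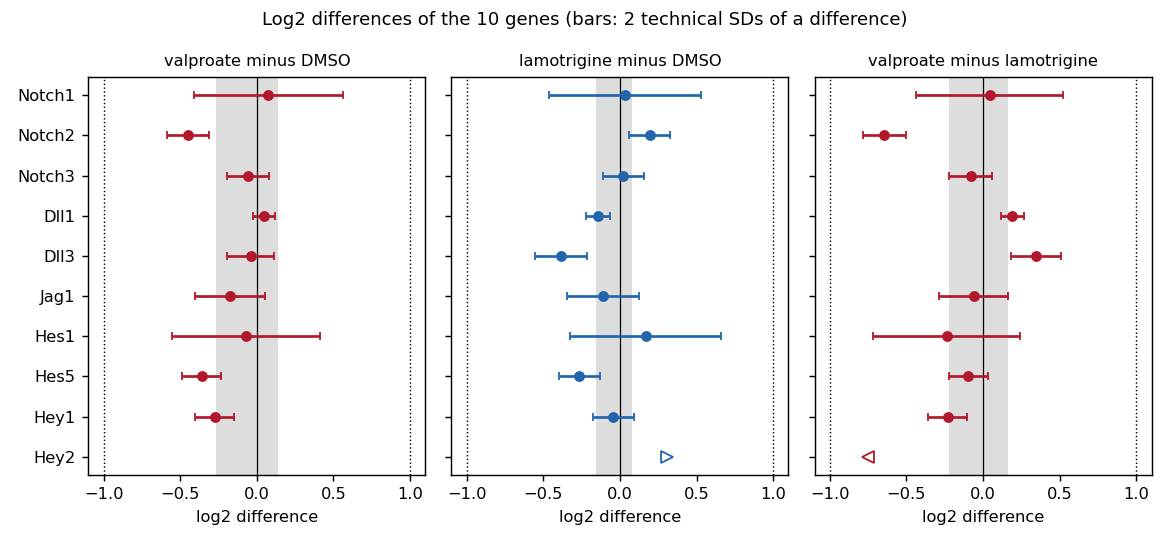
Log2 difference of each of the 10 genes (rows) in the 3 comparisons (panels). Points are measured differences, bars are 2 technical SDs either side, open triangles are bounds for Hey2, the grey band is the middle 50% of all genes and dotted lines mark 2-fold. Notch2 lay at -0.45, 0.19 and -0.64 from left to right, and no point reached a dotted line. Under spike-in scaling the Hey1 value for valproate minus DMSO and the Dll1 value for lamotrigine minus DMSO lay above 0.

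RBPJ binds the letters TGGGAA, so the promoters of the members were searched for them on both strands. RefSeq promoters (GRCm38.p6, 250 bases before to 50 after the start of a gene) were matched by symbol to 8 of the 10 members, giving 9 promoters. Hes1 and Hey1 had no entry. The core letters occurred in 2 of the 9, those of the targets Hes5 and Hey2, and in 25.6% of all 32851 promoters. The longer GTGGGAA, which contains the core, occurred in the same 2 and in 6.38% of all promoters. These promoters are printed with the core in capitals, TGGGAA on the strand of the gene and TTCCCA where it lies on the other strand.
Hes5, chr4:154960673-154960972 (GRCm38.p6, plus strand): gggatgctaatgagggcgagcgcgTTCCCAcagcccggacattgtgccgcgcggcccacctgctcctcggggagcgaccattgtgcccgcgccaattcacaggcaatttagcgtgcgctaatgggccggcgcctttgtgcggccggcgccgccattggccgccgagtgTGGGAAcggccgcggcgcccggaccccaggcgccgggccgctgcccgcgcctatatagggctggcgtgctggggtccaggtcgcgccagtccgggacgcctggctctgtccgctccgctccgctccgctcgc
Hey2, chr10:30842734-30843033 (GRCm38.p6, minus strand): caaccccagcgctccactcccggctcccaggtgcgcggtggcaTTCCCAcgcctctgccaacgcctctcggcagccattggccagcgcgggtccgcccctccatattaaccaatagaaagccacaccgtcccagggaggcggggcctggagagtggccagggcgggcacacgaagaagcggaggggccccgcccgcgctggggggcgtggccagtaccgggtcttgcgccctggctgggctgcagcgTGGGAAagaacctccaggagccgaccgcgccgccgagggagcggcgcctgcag

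Each of these promoters held 2 matches, 1 on each strand. In Hes5 they began 226 bases (other strand) and 82 bases (gene strand) before the start, and in Hey2 207 bases (other strand) and 3 bases (gene strand). The 2 genes with these letters differed on the arrays: Hes5 was detected everywhere and lower with each drug than with DMSO, though by only 0.01 and 0.06 under spike-in scaling, and Hey2 was at or below the floor except with lamotrigine.

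Letters that Hes and Hey proteins and their partners bind were counted in the same windows on both strands. The N box CACNAG occurred in 4 of the 9 member promoters and in 42.5% of all promoters, and the E box CANNTG in 6 of the 9 and in 72.3%. The member promoters had a median G+C content of 68.3%, against 52.7% over all promoters, and a median of 24 CpG dinucleotides, against 7. A match to letters is a description of the window, and none of these arrays measured binding.

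The other genes of the pathway were set beside the members from lists ordered by role. Of 112 listed genes 111 were on the array and 100 were measured for valproate minus DMSO. At the 2-fold threshold 0 of 100 were higher and 1 was lower with valproate than with DMSO, with a median log2 difference of -0.12 beside -0.08 over all genes. At 1.5-fold 0 were higher and 6 lower. Neurog2, undetected with DMSO, was not among the 100 and was at least 2.15-fold higher with valproate than with DMSO. Over all genes 1.42% were lower at 2-fold, and 6.25% were higher and 5.95% lower at 1.5-fold, so the counts of lower pathway genes were near the share of all genes. With lamotrigine 0 of 100 were 2-fold apart from DMSO either way, 0 were 1.5-fold higher and 1 was 1.5-fold lower, with a median of -0.06 beside -0.05. Under spike-in scaling the median of all genes itself moved from -0.08 to 0.27 for valproate minus DMSO and from -0.05 to 0.16 for lamotrigine minus DMSO, so signs in the wider pathway are relative to the 75th percentile scaling.

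The gene 2-fold lower with valproate was Ncstn, which encodes nicastrin, the gamma-secretase subunit that holds the cut receptor. It had a scaled signal of 4.50 with valproate, just over the floor, 11.2 with lamotrigine and 11.8 with DMSO. The log2 difference of -1.39 was the only one of the 8 measured cleavage genes at that size. The protease Adam10 (-0.21) and the gamma-secretase subunit Psenen (-0.20) came next in that list.

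The nuclear partners of the receptor were listed as activators and repressors. Rbpj, the DNA-binding partner, had a scaled signal of 148 with valproate, 158 with lamotrigine and 153 with DMSO (-0.05 in log2 for valproate minus DMSO). Its second probe, at 7.56 with valproate, 11.8 with lamotrigine and 9.67 with DMSO, gave -0.35 for valproate minus DMSO and 0.29 for lamotrigine minus DMSO, so the probes of Rbpj differed. The 9 nuclear activators measured had a median of -0.22 for valproate minus DMSO, with 7 below 0, and 0.11 for lamotrigine minus DMSO. The farthest from 0 with valproate were the acetyltransferase Kat2a (-0.41, and -0.41 also for lamotrigine minus DMSO) and the Mastermind coactivators Maml1 (-0.33) and Maml2 (-0.25). Of 16 nuclear repressors measured, with a median of 0.02, the farthest were the corepressor Ctbp1 (-0.43) and the histone deacetylases Hdac2 (0.35) and Hdac3 (-0.33).

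Other targets had the lowest median of the pathway lists, -0.38 over 20 genes for valproate minus DMSO, with 6 above 0. Of the 20, 0 were at least 2-fold apart and 3 at least 1.5-fold lower, where 5.95% of all genes were lower by 1.5-fold. For lamotrigine minus DMSO the median was 0.04. The list shares Sox9 and Gfap with the astrocyte markers and Fabp7 with the progenitor markers. For valproate minus DMSO it also holds Hes2 (-0.38), Hes6 (0.17), Hes7 (-0.16), Heyl (0.09) and Nrarp (0.13), given below. Whether the listed genes depended on Notch in these cultures was not tested. Id4, an inhibitor of basic helix-loop-helix proteins, was at 302 with valproate, 611 with lamotrigine and 564 with DMSO (-0.90 for valproate minus DMSO). Bhlhe41, a repressor related to the Hes proteins, was at 9.10 with valproate, 17.9 with lamotrigine and 16.6 with DMSO (-0.87). Its relative Bhlhe40 was at 55.4 with valproate, 70.5 with lamotrigine and 83.9 with DMSO (-0.60). For lamotrigine minus DMSO the values of Id4 and Bhlhe41 were small, at 0.12 and 0.11.

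The closest relatives of the members were the other Hes and Hey genes. Hes6, which in mouse counteracts Hes1, was at 1170 with valproate, 980 with lamotrigine and 1042 with DMSO (0.17 for valproate minus DMSO), and Hes7, known from the somite clock, was at 152 with valproate, 176 with lamotrigine and 171 with DMSO (-0.16). Heyl was near the floor at 8.0 with valproate, 6.72 with lamotrigine and 7.54 with DMSO. Hes2 was at 4.66 with valproate, 4.89 with lamotrigine and 6.06 with DMSO (-0.38), and Hes3 was not detected on any array. Nrarp, a target that feeds back on the receptor, was the gene 1.5-fold lower with lamotrigine than with DMSO, at 10.9 with valproate, 6.46 with lamotrigine and 9.95 with DMSO (-0.62 for lamotrigine minus DMSO).

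Other receptors and ligands had a median of -0.23 over 10 genes for valproate minus DMSO. Notch4, a receptor of endothelial cells, was at 22.5 with valproate, 35.5 with lamotrigine and 33.0 with DMSO (-0.55, and 0.11 for lamotrigine minus DMSO). Egfl7, a secreted Notch-binding protein of endothelial cells, was at 1049 with valproate, 559 with lamotrigine and 752 with DMSO (0.48, and -0.43 for lamotrigine minus DMSO). Cntn1, a neuronal adhesion protein that can act as a Notch ligand, had a difference of -0.41. Jag2 was within the technical spread at 49.97 with valproate, 45.6 with lamotrigine and 48.6 with DMSO, and Dll4 was not detected on any array.

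Of the enzymes that modify receptors, Eogt, which adds a sugar to their EGF repeats, had 0.53 for valproate minus DMSO and 0.64 with its second probe. The Fringe enzyme Mfng had 0.35, with 0.59 for its second probe, and Furin, which cuts the receptor precursor, -0.29. Of the genes for ligand endocytosis the farthest were the dynamins Dnm1 (-0.47, with -0.16 for its second probe) and Dnm2 (-0.23, though 0.09 with its second probe) and the ligand ubiquitin ligase Mib1 (-0.25). Of the genes for receptor turnover they were Numbl (-0.59), a relative of the Notch inhibitor Numb, and the ubiquitin ligases Itch (-0.52) and Fbxw7 (-0.34, though 0.52 with its second probe).

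Of the listed proneural and neurogenic genes, 8 were measured for valproate minus DMSO, with a median of -0.10. The list shares Dcx with the neuron markers, and Olig1 and Olig2 with the oligodendrocyte lineage markers, given below. Dcx, a microtubule protein of young neurons, was at 734 with valproate, 1058 with lamotrigine and 1207 with DMSO (-0.72, with -0.86 and -0.84 for its other probes). Olig2, a factor of the oligodendrocyte lineage, differed by 0.22 and the zinc finger factor Insm1 by -0.20. Neurog2, a proneural factor of excitatory neurons, was at 11.4 with valproate and 5.31 with lamotrigine, against 4.07, not detected, with DMSO. It was at least 2.15-fold higher with valproate than with DMSO and had a log2 difference of 1.1 for valproate minus lamotrigine, the only pathway gene at least 2-fold higher there. At least 2-fold lower with valproate than with lamotrigine were Ncstn (-1.32) and Id4 (-1.02), out of 101 measured. By that threshold 1.69% of all genes were lower and 2.06% higher, so these counts were near the share of all genes.

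**Figure D3:**
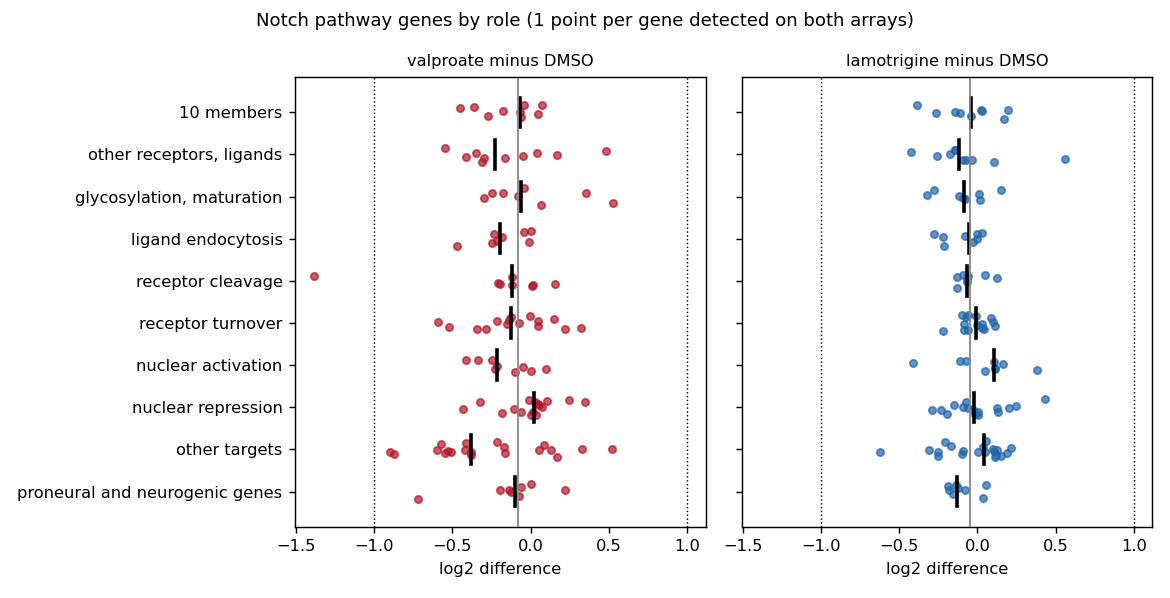
Log2 difference from DMSO of the members and of the other pathway genes by role (rows), with valproate on the left and lamotrigine on the right. Each point is a gene detected on both arrays, black bars are medians of a row, the grey line is the median of all genes and dotted lines mark 2-fold. Other targets had a median of -0.38 with valproate and 0.04 with lamotrigine, and Ncstn, at -1.39, was alone beyond 2-fold. Rows share the scaling of an array, and spike-in scaling shifts every point by 0.35 on the left and 0.20 on the right.

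Markers of the cell types that such cultures can hold were read on the same arrays. In bulk RNA, fewer cells of a type and less RNA per cell cannot be told apart. All 12 neuron markers were detected on every array, with a summed scaled signal of 25431 with valproate, 30127 with lamotrigine and 34214 with DMSO, and all 12 astrocyte markers, with 22540 with valproate, 42300 with lamotrigine and 43012 with DMSO. The largest part of the astrocyte sum was Aldoc, at 10073 with valproate, 25605 with lamotrigine and 25995 with DMSO. The median log2 difference from DMSO of the astrocyte markers was -0.52 with valproate and -0.02 with lamotrigine. The water channel Aqp4 (-1.62) and the glycolytic enzyme Aldoc (-1.37) were the farthest with valproate, and the probes of Gfap differed, at 0.06, 0.11 and -0.43. Of 11 progenitor markers, a list that contains Hes5, 10 were detected on every array, with sums of 30040 with valproate, 34768 with lamotrigine and 37157 with DMSO and a median of -0.05 for valproate minus DMSO. The farthest of these were the proliferation marker Mki67 (0.52) and the filament protein Vim (-0.42). The largest part of the progenitor sum was Fabp7, at 16267 with valproate, 18301 with lamotrigine and 21751 with DMSO. The neuron markers had a median of -0.33 with valproate, with 9 of 12 below 0 and Tubb3 (-0.94) and Nefh (-0.93) the farthest, and of -0.22 with lamotrigine.

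Ependymal markers, all 6 detected, summed to 1050 with valproate, 2377 with lamotrigine and 1991 with DMSO, with a median of -0.93 for valproate minus DMSO and Tmem212 (-2.63) and Deup1 (-2.49) the farthest. The oligodendrocyte lineage markers, 10 of 12 detected on every array, summed to 4575 with valproate, 4655 with lamotrigine and 5097 with DMSO, with a median of -0.28. Gpr17, a receptor of oligodendrocyte precursors, was the farthest of them at -3.75, followed by Sox10 (-0.75). Of the 10 markers 7 were below 0 and 3 above, with Mbp the farthest above at 0.60. All 10 fibroblast and meningeal markers were detected, with sums of 7040 with valproate, 8361 with lamotrigine and 9215 with DMSO, a median of -0.35, 9 of 10 below 0, and Col3a1 (-0.97) and Col1a1 (-0.57) the farthest.

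Of the endothelial markers 4 of 10 were detected on every array (Cdh5, Kdr, Vwf and Eng). They had sums of 812 with valproate, 901 with lamotrigine and 728 with DMSO, and Vwf (-0.50) and Cdh5 (-0.45) were the farthest. The largest part of the endothelial sum was Kdr, and its probes differed in direction. The probe in the sum gave 0.20 for valproate minus DMSO and 0.34 for lamotrigine minus DMSO. Its second probe gave -0.64 and -0.26, so the higher sums with both drugs rest on the choice of Kdr probe. Pecam1 was detected with both drugs only, Flt1 with valproate only, at least 5.15-fold higher than with DMSO, and Tek, Cldn5, Tie1 and Emcn on none of the 3 arrays. Of the mural markers 4 of 8 were detected on every array, with sums of 3029 with valproate, 3623 with lamotrigine and 3647 with DMSO and Cspg4 (0.37) and Acta2 (-0.30) the farthest, and Kcnj8, Abcc9 and Des were undetected on all 3. Of the microglia and macrophage markers 4 of 8 were detected on every array, with sums of 1586 with valproate, 1565 with lamotrigine and 1429 with DMSO, and Cd68 (-0.36) and Itgam (0.19) the farthest, while Cx3cr1, Ptprc, Tyrobp and P2ry12 were undetected. Csf1r had -0.08 for valproate minus DMSO, though -0.65 with its second probe. Of the 3 blood markers on the array only Hba-a1 was detected, at 31.2 with valproate, 19.4 with lamotrigine and 14.6 with DMSO.

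The medians of the astrocyte, ependymal, neuron, oligodendrocyte lineage and fibroblast markers were thus all lower on the valproate array than the -0.08 of all genes. So were those of the endothelial (-0.21, 4 measured) and mural (-0.16, 5 measured) markers. Those of the progenitor (-0.05, 10 measured) and the microglia and macrophage (0.00, 4 measured) markers were not. Notch2, Hes5 and Hey1 were lower on the valproate array too. The part of these markers in the differences was not tested.

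**Figure D4:**
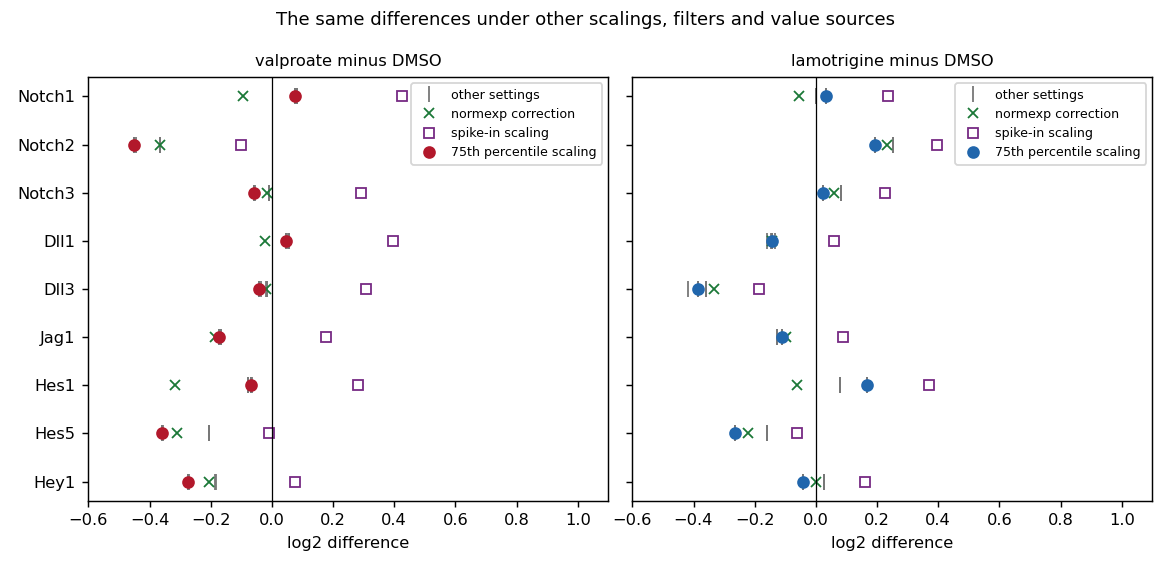
Log2 difference from DMSO of the 9 members detected on all arrays, with valproate on the left and lamotrigine on the right, under the 75th percentile scaling (filled points) and the 9 other settings (crosses, squares and ticks). Spike-in scaling (squares) lies to the right of the filled point for every gene and puts 7 of 9 members above 0 in both panels. Notch2 and Hes5 kept their sign in both panels, and Dll3 and Notch3 in the right one, though Notch2 was at -0.10 on the left under spike-in scaling.

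Relative to the median of all genes, which removes only a shift equal for every gene, valproate minus DMSO was -0.37 for Notch2, -0.28 for Hes5 and -0.19 for Hey1. Lamotrigine minus DMSO was -0.34 for Dll3, -0.22 for Hes5 and 0.24 for Notch2 on the same basis. Quantile normalization moved genes by unequal amounts. Without the median taken off, it gave -0.37 for Notch2, -0.21 for Hes5 and -0.18 for Hey1 for valproate minus DMSO. The median of all genes was then -0.01. These are measurements of 1 array per treatment.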

How the data were processed

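RNA from 3 cultures was labelled with Cy3 and hybridised to an Agilent mouse array, 1 array per treatment on 1 slide, per the labels and the file headers. The authors deposited scanner files in which intensity was read by Feature Extraction 10.7.1.1, per the file headers, with background subtracted within an array and no scaling between arrays, and a table of linear intensity values that are quantile-normalized, as judged from their equal sorted columns. Probe positions are on mm9.

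From the processed signal, outlier spots were left out, spots of a probe were averaged as log2, and each array was scaled to its 75th percentile over 59305 non-control spots (Python 3.11.15, numpy 2.4.6, pandas 2.3.3). RefSeq genes were assigned to the 55681 probes: 27235 matched on accession, 3581 on the current symbol and 565 on a former symbol, which left 24300 unnamed. A gene with several probes was represented by that with the highest mean level. Differences needed detection on both arrays. Where 1 was undetected, the higher of its signal and its floor gave a bound. Technical SDs came from 399 probes printed 10 times. The calculation was tested on simulated data.

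Alternatives were quantile normalization, centring on detected probes, spike-in scaling over 6 of 10 control probes with intensity over 100, normexp background correction (limma 3.58.1, R 4.3.3, offset 50), the authors' deposited table, 2 other detection filters, the mean of probes and outlier spots kept, with thresholds of 1.5-fold and 3-fold. The members and gene lists were chosen with earlier results of these data known. Named beside the members were the 3 genes of each list farthest from 0 for valproate minus DMSO, pathway genes 1.5-fold apart for lamotrigine minus DMSO and the 2 farthest markers of each cell type. Rbpj, Hes3, Hes6, Hes7, Heyl, Jag2, Dll4, Neurog2, Gfap, Kdr, Csf1r and Mbp were named after their values were seen. So were genes named as shared between lists and markers given by their detection alone. Whether a probe lies in coding or untranslated sequence was not determined. Sequences are from the deposited files and from RefSeq.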

Additional observations from a re-analysis of the deposited data

Results flagged for a closer look

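Notch2 was noted because the drugs lay on opposite sides of DMSO. Its log2 difference from DMSO was -0.45 with valproate and 0.19 with lamotrigine, each beyond 2 technical SDs, and valproate minus lamotrigine was -0.64. Under spike-in scaling valproate minus DMSO was -0.10, within 2 technical SDs of 0, and lamotrigine minus DMSO was 0.40. The difference between the drugs was not tested, since there was 1 array per treatment, and both comparisons use the same DMSO array. A second Notch2 probe near the floor had -0.80 for valproate minus lamotrigine.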

How the results depend on the processing

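No paired analysis was possible because each treatment has 1 array. No member was 2-fold apart under any alternative, nor at a 3-fold threshold. At 1.5-fold, 1 member (Notch2) was apart for valproate minus lamotrigine.

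Spike-in scaling turned the sign of Hey1 for valproate minus DMSO (0.075) and of Dll1 for lamotrigine minus DMSO (0.058). It turned the members' median to 0.28 for valproate minus DMSO, 0.16 for lamotrigine minus DMSO and 0.066 for valproate minus lamotrigine, since it adds 0.35 to every valproate value and 0.20 to every lamotrigine value relative to DMSO. The median for lamotrigine minus DMSO was 0.0015 with quantile normalization and 0.0016 in the authors' deposited table. Normexp correction moved the median for valproate minus DMSO to -0.19, and the cause was not tested. Beyond 2 technical SDs, spike-in scaling left 0 members lower and 3 higher with valproate than with DMSO, and 1 lower and 3 higher with lamotrigine than with DMSO. Notch2 for valproate minus DMSO was then -0.10.

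For the other pathway genes, alternatives apart from spike-in scaling, normexp and 1.5-fold were added after the data were seen. The 1 gene 2-fold lower with valproate than with DMSO became 0 with normexp and 6 at 1.5-fold, and 2 were higher with no detection filter. With lamotrigine 1 was lower than DMSO at 1.5-fold. The 2 genes lower with valproate than with lamotrigine became 1 with quantile normalization, spike-in scaling or the authors' table, 0 with normexp and 6 at 1.5-fold. The 1 higher became 2 with spike-in scaling or no filter, 0 with normexp or detection on all 3 arrays, and 5 at 1.5-fold.

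Of the single-gene differences under alternatives, 205 moved by less than 1 technical SD, 36 moved by more, and the 2 named above turned the sign of a difference beyond 2 technical SDs. Many of the 205 did not move at all. The detection filters left members detected on every array unchanged, and keeping outlier spots changed Dll1 only. Hes1 and Hey2 were near the floor, and with Notch1 they lay under a scaled signal of 25, where the technical SD of a difference was about 0.24. The spread between cultures is unknown.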
